A study of Mus musculus with 12 samples.

Results

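The IFIT and IFITM genes followed here are 7 antiviral genes, read across 4 treatments of CT26 cells: IFIT1, IFIT2, IFIT3, IFIT1BL2, IFITM1, IFITM2 and IFITM3. They were chosen by symbol, as members of 2 named gene families that hold further genes, with earlier results of these data known. All 7 were found among the 23636 symbols of the expression table, and all 7 passed the filter of a mean of at least 0.2 TPM that left 11878 genes for testing. Gene symbols are printed in capitals, as in the table.

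IFIT proteins sit in the cytoplasm, carry tetratricopeptide repeats and bind viral RNA or translation factors, which blocks the translation of foreign RNA. IFITM proteins are small membrane proteins that hinder the fusion of enveloped viruses with cell membranes. Genes of both families are known to be induced by interferons. Type I interferon acts through ISGF3, a complex with STAT2 and IRF9 among its parts that binds the interferon-stimulated response element (ISRE), and IFN-γ acts first through GAS elements.

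CT26 is a mouse colon carcinoma line from the BALB/c strain, grown here as a culture with no stroma or immune cells added. Cells were left with no treatment or were given CX3CL1, the ligand of the chemokine receptor CX3CR1, at 2 µg/ml, IFN-γ at 100 ng/ml, or both agents (CX3CL1+IFN-γ), for 8 hours. Each group had 3 biological replicates, which made 12 libraries of mRNA. The labels name IFN-γ alone, while one sentence of the study's text also places TNF-α before CX3CL1, and the labels were followed here.

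The values are TPM, transcript abundance per length scaled to 1000000 in each library, so levels can be compared between genes but read depth is unknown and no counting error can be given. Between 10613 and 10824 symbols per library reached 1 TPM. Within groups, the Pearson correlation between replicates ran from 0.984 to 0.996 over the genes tested. Of 6 epithelial markers, only KRT18 reached a mean of 1 TPM, and EPCAM was listed at 0 in every library. CDH1, CDX2 and VIL1 were under 0.2 TPM in every library, and KRT8 had a mean of 0.276 TPM in untreated cells and lower means in the treated groups, so most of these markers were at or near 0. All 4 mesenchymal markers were present, with summed group means from 2769 to 4798 TPM, and VIM alone was at 4174 TPM in untreated cells and 2360 TPM after CX3CL1+IFN-γ. Of 10 leukocyte markers, CD68 and S100A8 reached 1 TPM and PTPRC, CD3E, ITGAM, ADGRE1 and CSF1R were under 0.2 TPM, with the summed level of the list from 13.5 to 19.3 TPM across the group means and from 9.07 to 34.2 TPM across libraries. PECAM1 and CDH5, the endothelial markers, were under 0.2 TPM. The part of these marker levels in the results was not tested. In bulk RNA, more responding cells and more RNA per cell cannot be told apart.

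The 4 IFIT genes lie in 1 cluster on chromosome 19 and the 3 IFITM genes in another on chromosome 7 (GENCODE vM21 on GRCm38). IFIT2 (chr19:34550694-34576419) and IFIT3 (chr19:34583531-34588731) are on the plus strand. IFIT1BL2 (chr19:34617049-34640743, minus strand) and IFIT1 (chr19:34640871-34650009, plus strand) point away from each other, with 127 bases between their starts. IFITM2 (chr7:140954837-140955987) and IFITM3 (chr7:141009586-141010770) are on the minus strand and IFITM1 (chr7:140967221-140969825) is on the plus strand between them.

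**Figure D1:**
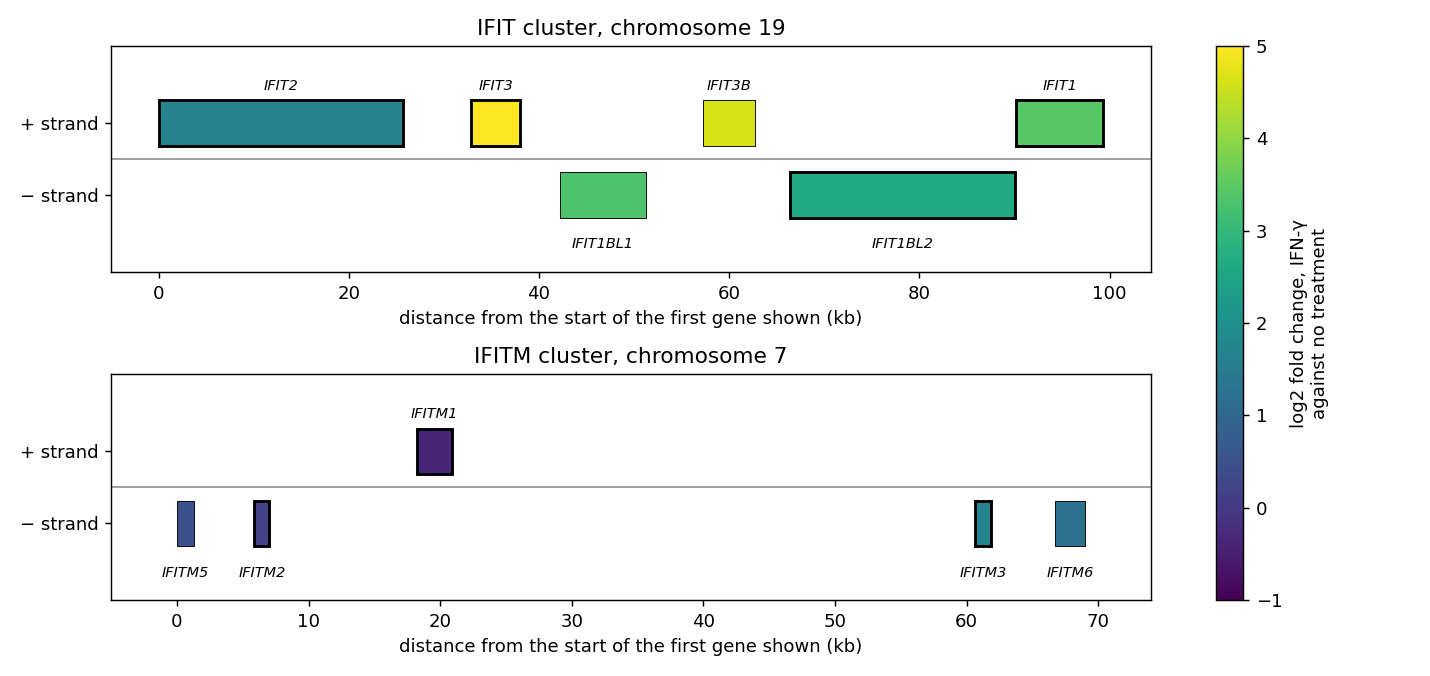
The 2 gene clusters, with distance from the start of the first gene shown on the x axis (kb), strand on the y axis, and each gene box coloured by its log2 fold change after IFN-γ against no treatment. Members have thick outlines and related genes thin ones. In the IFIT cluster the values run from 1.69 (IFIT2) to 4.997 (IFIT3), and in the IFITM cluster IFITM1 and IFITM2 are near 0 while IFITM3 is at 1.70.

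Sequence upstream of the transcription starts is shown because interferon response elements are known to lie there. The 250 bases before each start in the RefSeq tables for GRCm38.p6 were searched on both strands for a core of the ISRE, a core of the GAS element and a core of the kappaB element, which NF-kB proteins bind. The search patterns were written by hand from general knowledge and not read from a reference file, and the bases they matched are the capitals in the sequences shown. All 7 members matched an entry, with 9 windows in all. The reference is from the C57BL/6J strain and not from CT26, so the line's own bases may differ. Capitals mark the ISRE core in the first 4 sequences and each is written 5′ to 3′ along the strand of the named gene, upstream of every annotated start. The 127 bases shared by IFIT1 and IFIT1BL2 are chr19:34640744-34640870 on the IFIT1 strand. The stretches of IFIT3 (chr19:34583359-34583528) and of its near-copy IFIT3B (chr19:34607755-34607924) are on the plus strand, and that of IFITM2 (chr7:140955988-140956087) is on the minus strand.

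IFIT1-IFIT1BL2 interval: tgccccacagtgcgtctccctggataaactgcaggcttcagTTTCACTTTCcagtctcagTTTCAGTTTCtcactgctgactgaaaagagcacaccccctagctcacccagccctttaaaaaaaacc
IFIT3: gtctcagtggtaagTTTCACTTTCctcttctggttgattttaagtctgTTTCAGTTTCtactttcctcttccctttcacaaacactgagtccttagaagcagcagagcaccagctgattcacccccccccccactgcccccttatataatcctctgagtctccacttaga
IFIT3B: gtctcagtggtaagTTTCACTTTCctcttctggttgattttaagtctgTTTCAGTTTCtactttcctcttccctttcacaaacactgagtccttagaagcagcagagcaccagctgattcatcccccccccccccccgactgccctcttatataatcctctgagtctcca
IFITM2: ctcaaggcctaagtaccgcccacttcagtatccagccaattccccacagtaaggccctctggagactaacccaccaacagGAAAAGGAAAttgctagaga

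The interval between IFIT1 and IFIT1BL2 held 2 ISRE cores, which lay 104 and 85 bases before the IFIT1 start and 70 and 51 bases before the IFIT1BL2 start. IFIT3 also held 2, at 156 and 122 bases. The IFIT3 and IFIT3B stretches were identical over the 121 bases from their far end, which take in both cores. IFITM2 held 1 core, at 46 bases. An ISRE core was present in 4 of the 7 members (IFIT1, IFIT3, IFIT1BL2, IFITM2). By window it was present in 4 of their 9, and in 2.98% of all 32851 RefSeq windows of this length. The IFIT1 and IFIT1BL2 windows hold the same 2 cores, so they are not separate findings. The window of the other IFIT1BL2 start held none.

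The windows of IFIT2, IFITM1 and IFITM3 held no ISRE core, which says only that these letters are not in those bases. IFIT2 (chr19:34550444-34550593, plus strand) held a GAS core at 241 bases that overlapped a kappaB core at 247 bases, and IFITM3 (chr7:141010771-141010890, minus strand) held a kappaB core at 116 bases. These are shown for contrast, with the GAS and kappaB cores in capitals. A GAS core was present in 7.02% of all windows and a kappaB core in 1.21%.

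IFIT2: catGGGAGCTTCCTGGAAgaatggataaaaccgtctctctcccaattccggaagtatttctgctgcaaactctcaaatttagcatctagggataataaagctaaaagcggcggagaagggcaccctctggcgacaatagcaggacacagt
IFITM3: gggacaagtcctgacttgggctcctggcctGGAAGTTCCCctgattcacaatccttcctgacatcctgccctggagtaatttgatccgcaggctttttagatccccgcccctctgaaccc

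For each gene, log2(TPM + 1) was compared between groups with limma, and a difference was called where the p adjusted over all 11878 genes by Benjamini-Hochberg was under 0.05. Fold changes are on that scale, which understates the change of low genes, and SE is the standard error. With 3 libraries against 3, the smallest two-sided p of an exact permutation test is 0.1, and the calls therefore draw on the spread pooled over all genes by limma.

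The members differed widely in level before any treatment. The mean ± SD (n = 3) in untreated cells was 1159 ± 341 TPM for IFITM3, 491 ± 35.7 TPM for IFITM2 and 37.6 ± 8.18 TPM for IFITM1. IFIT1 and IFIT2 were lower, at 20.4 ± 4.24 and 18.4 ± 4.12 TPM, and their libraries overlapped. IFIT3 was at 5.49 ± 2.89 TPM and IFIT1BL2 at 0.491 ± 0.107 TPM. Untreated CT26 cells thus held abundant IFITM mRNA, with IFITM3 the 110th most abundant of the 23636 symbols, and little IFIT mRNA. After IFN-γ, IFITM3 stood 24th, IFIT1 697th and IFIT3 813th by group mean.

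**Figure D2:**
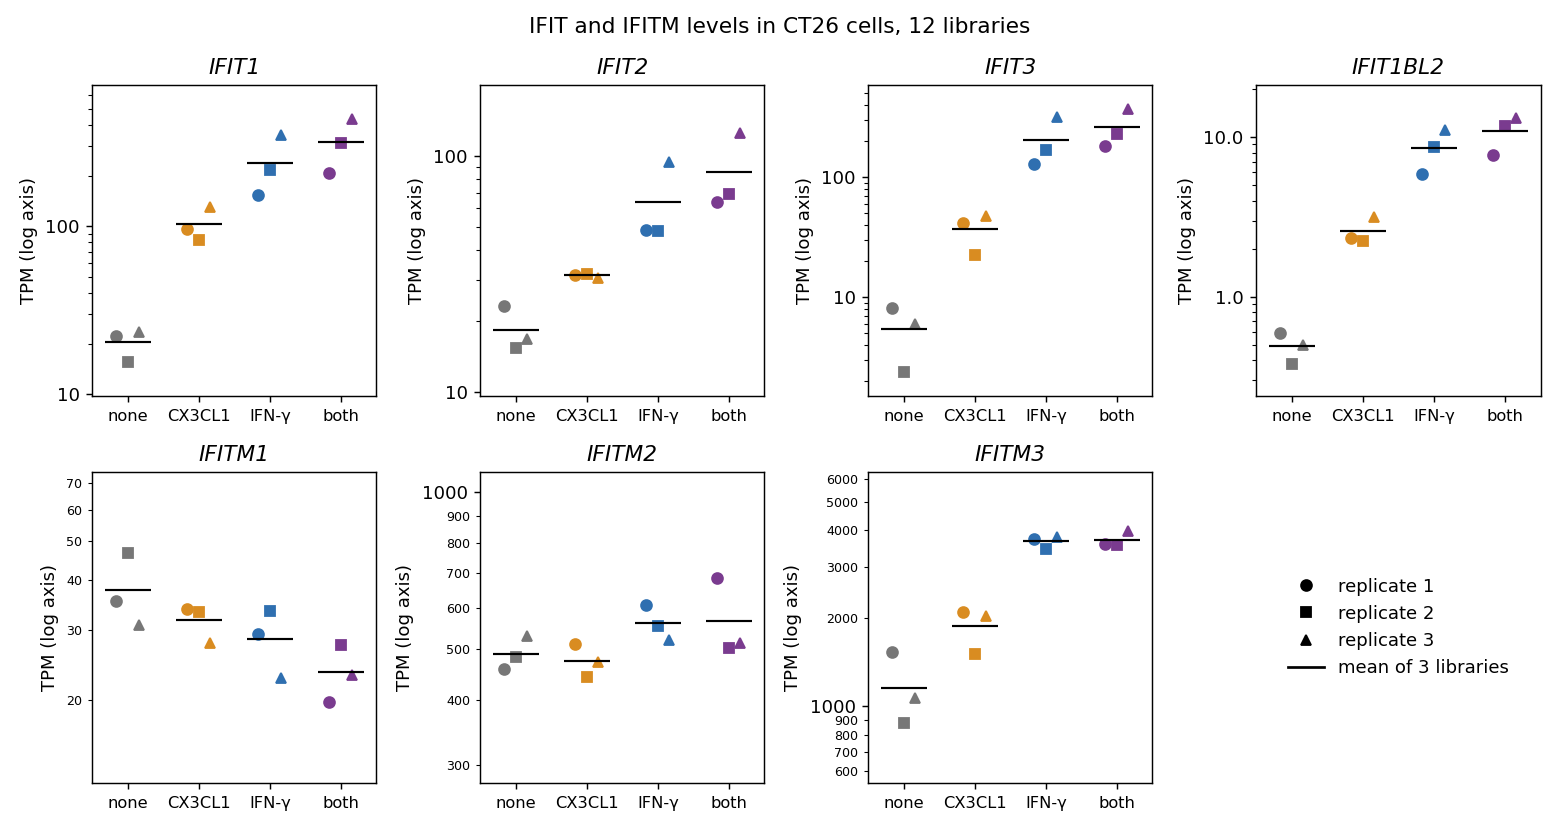
TPM on a log axis for the 7 members in each of the 12 libraries, by group (none, no treatment; both, CX3CL1+IFN-γ). Symbols mark the replicate number and bars the mean of 3 libraries. The group means of the IFIT genes and IFITM3 are lowest without treatment, next after CX3CL1 and higher after IFN-γ, though not every step was called, while IFITM2 stays between 443 and 685 TPM and IFITM1 between 19.8 and 46.7 TPM.

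IFIT1, the family member best known for holding back mRNA whose cap lacks a methyl group, was higher after each treatment. Its level was 22.3, 15.6 and 23.4 TPM in untreated replicates 1, 2 and 3 and 96.1, 82.6 and 129.95 TPM after CX3CL1. It was 154, 215 and 347 TPM after IFN-γ and 206, 314 and 433 TPM after CX3CL1+IFN-γ. Every treated library was above every untreated one, as in 5.50% of all genes for CX3CL1 and 20.6% for IFN-γ, and every IFN-γ library was above every CX3CL1 library. IFIT1 rose by a log2 fold change of 2.27 after CX3CL1 (SE 0.31, limma adjusted p = 0.00138) and of 3.42 after IFN-γ (SE 0.31, limma adjusted p = 1.31e-05).

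IFIT3, which in human cells binds and stabilises IFIT1 and links MAVS to its kinase, had the largest fold changes among the members. It was at 8.13, 2.40 and 5.95 TPM in untreated cells and 41.3, 22.6 and 48.0 TPM after CX3CL1. After IFN-γ it reached 130.1, 168 and 317 TPM, and after CX3CL1+IFN-γ 183, 229.6 and 368 TPM. The untreated, CX3CL1 and IFN-γ groups did not overlap, and the IFN-γ and CX3CL1+IFN-γ groups did. IFIT3 rose by 2.61 after CX3CL1 (SE 0.41, limma adjusted p = 0.00356) and by 4.997 after IFN-γ (SE 0.41, limma adjusted p = 7.64e-06), which ranked 16th and 7th among the 11878 genes.

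IFIT3B, a gene of the same cluster that is not among the 7, ran beside IFIT3. Its group means were 2.67, 20.0, 93.5 and 123 TPM in the order no treatment, CX3CL1, IFN-γ and CX3CL1+IFN-γ, and it rose by 2.51 after CX3CL1 (limma adjusted p = 0.000581) and by 4.64 after IFN-γ (limma adjusted p = 2.65e-06). Of the 1596 stretches of 150 bases in the IFIT3 transcripts, 18.5% also occur in IFIT3B, so how reads were divided between these genes is uncertain. The ratio of IFIT3 to IFIT3B within a library ran from 1.38 to 2.35 over all 12 libraries, and the groups overlapped in each of 5 comparisons.

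IFIT2, an RNA-binding member known for protecting the nervous system from virus in mice, had the smallest fold changes of the 4 IFIT genes after CX3CL1 and after IFN-γ. It was at 23.1, 15.4 and 16.8 TPM in untreated cells and 31.5, 31.8 and 30.3 TPM after CX3CL1. IFN-γ gave 48.6, 48.4 and 94.7 TPM and CX3CL1+IFN-γ 63.7, 68.8 and 125 TPM. The untreated, CX3CL1 and IFN-γ groups did not overlap. IFIT2 rose by 1.69 after IFN-γ (SE 0.28, limma adjusted p = 0.00182), and its log2 fold change of 0.75 after CX3CL1 was not called (SE 0.28, 95% interval 0.15 to 1.35, limma adjusted p = 0.364).

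IFIT1BL2, a mouse paralog of IFIT1 whose role is less studied, was the lowest member. It was at 0.593, 0.380 and 0.5002 TPM in untreated cells, 2.33, 2.24 and 3.14 TPM after CX3CL1, 5.90, 8.63 and 11.1 TPM after IFN-γ, and 7.72, 11.6 and 13.3 TPM after CX3CL1+IFN-γ. Untreated, CX3CL1 and IFN-γ libraries again stood apart. It rose by 1.25 after CX3CL1 (SE 0.21, limma adjusted p = 0.00593) and by 2.64 after IFN-γ (SE 0.21, limma adjusted p = 7.64e-06), and with these low TPM the pseudocount of 1 holds the fold change down. The ratio of the group means was 5.23 for CX3CL1 over no treatment, close to the 5.04 of IFIT1 across the shared interval. After IFN-γ these ratios were 17.4 for IFIT1BL2 and 11.7 for IFIT1. Of the 150-base stretches, 1.24% of those in IFIT1 and 0.963% of those in IFIT1BL2 occur in the other gene.

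IFITM3, an endosomal protein known for restricting influenza virus, carried most of the IFITM mRNA. It was at 1538, 876 and 1064 TPM in untreated cells and 2095, 1504 and 2028 TPM after CX3CL1. IFN-γ gave 3734, 3447 and 3798 TPM and CX3CL1+IFN-γ 3592, 3570.1 and 3961 TPM. Untreated replicate 1 lay above CX3CL1 replicate 2, and every IFN-γ library lay above every CX3CL1 library. IFITM3 rose by 1.70 after IFN-γ (SE 0.19, limma adjusted p = 6.36e-05). Its log2 fold change of 0.72 after CX3CL1 was not called (SE 0.19, 95% interval 0.32 to 1.12, limma adjusted p = 0.0858), and was 0.94 without untreated replicate 1 (limma adjusted p = 0.00774) and 0.87 without CX3CL1 replicate 2 (limma adjusted p = 0.0347), both called.

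IFITM2, a close relative of IFITM3 in the same endosomal compartments, was abundant but was not called in any comparison. It was at 459, 484 and 529 TPM in untreated cells and 511, 443 and 473 TPM after CX3CL1. After IFN-γ it was at 608, 553 and 520.4 TPM and after CX3CL1+IFN-γ at 685, 503 and 515 TPM. The groups overlapped in each comparison of treated with untreated cells. The log2 fold change was -0.04 after CX3CL1 (95% interval -0.31 to 0.23, limma adjusted p = 1.00) and 0.19 after IFN-γ (95% interval -0.08 to 0.46, limma adjusted p = 0.402). Of the 150-base stretches of IFITM2, 23.5% also occur in an annotated gene, GM45717, which is not among the symbols of the expression table.

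IFITM1, which resides mostly at the cell surface, had its highest mean without treatment. It was at 35.5, 46.7 and 30.8 TPM in untreated cells, 33.9, 33.3 and 27.7 TPM after CX3CL1, 29.2, 33.5 and 22.7 TPM after IFN-γ, and 19.8, 27.4 and 23.0 TPM after CX3CL1+IFN-γ. Treated and untreated libraries overlapped after CX3CL1 and after IFN-γ, and every CX3CL1+IFN-γ library was under every CX3CL1 library, as in 5.48% of all genes. Its log2 fold change was -0.23 after CX3CL1 (SE 0.18, limma adjusted p = 1.00) and -0.39 after IFN-γ (SE 0.18, 95% interval -0.77 to -0.0028, limma adjusted p = 0.225), neither called. With the replicate number as a block over all groups, the IFN-γ difference was called lower (limma adjusted p = 0.0467), as were 4.85% of all genes in that fit. Libraries of the same number deviated together between no treatment and IFN-γ. The same fit also blocks pairs of groups in which they did not.

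Set side by side, CX3CL1 and IFN-γ each raised IFIT genes, and more members were called after IFN-γ. After CX3CL1, 3 of 7 members were called higher (IFIT1, IFIT3, IFIT1BL2) and none lower, where 1.78% of all genes tested were called higher and 0.168% lower. After IFN-γ, 5 of 7 were called higher (IFIT1, IFIT2, IFIT3, IFIT1BL2, IFITM3), where 5.91% of all genes were higher and 1.94% lower. The median log2 fold change of the members was 0.75 after CX3CL1 and 1.70 after IFN-γ, beside -0.02 and 0.03 over all genes. The same members were called with median-ratio scaling of the libraries. The CX3CL1 and IFN-γ comparisons share the untreated libraries.

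**Figure D3:**
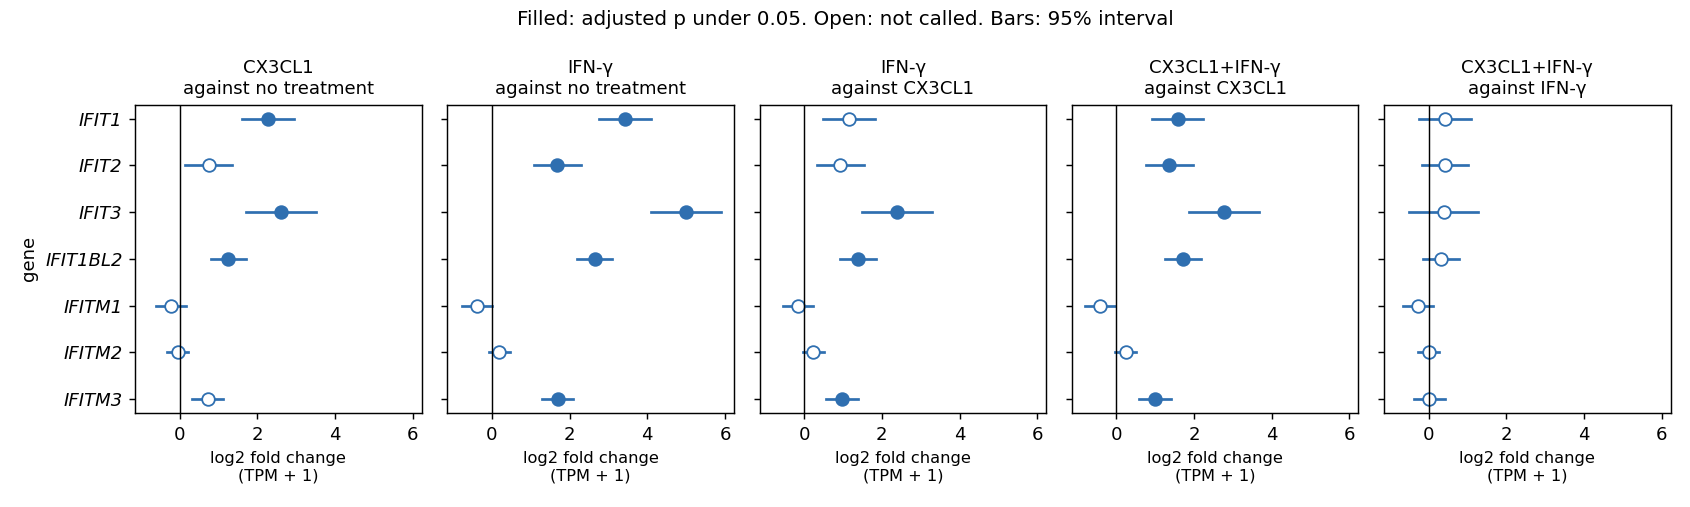
Log2 fold change on the log2(TPM + 1) scale (x axis) of each member (y axis) in 5 comparisons, with 95% intervals. Filled circles are called at a limma adjusted p under 0.05. After CX3CL1 3 members are filled, after IFN-γ 5, and in CX3CL1+IFN-γ against IFN-γ none.

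The direct comparison of the agents, IFN-γ against CX3CL1, used no untreated library. IFIT3 was higher after IFN-γ by 2.39 (SE 0.41, limma adjusted p = 0.00652), IFIT1BL2 by 1.39 (SE 0.21, limma adjusted p = 0.00312) and IFITM3 by 0.98 (SE 0.19, limma adjusted p = 0.0108). These 3 of 7 compare with 3.52% of all genes called higher. Without IFN-γ replicate 3 the IFITM3 difference was 0.95 and not called (limma adjusted p = 0.0541). IFIT1 and IFIT2 differed by 1.15 (limma adjusted p = 0.0538) and 0.94 (limma adjusted p = 0.0745) and were not called, although no library of one group overlapped the other, as in 18.3% of all genes. With the replicate block both were called higher (limma adjusted p = 0.00519 and 0.0315), in a fit that called 10.3% of all genes higher. IFIT1 was also called without IFN-γ replicate 1 (1.43, limma adjusted p = 0.0331) and with a minimum mean of 1 TPM (limma adjusted p = 0.0494).

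Ratios between members within a library do not depend on the scaling to a fixed total, and several of them did not overlap between some of the groups. How often ratios of other gene pairs stand apart in this way was not computed. The separations given for both families are therefore not read as particular to these members. The ratio of IFIT2 to IFIT1 was 1.04, 0.990 and 0.716 in untreated cells, 0.328, 0.385 and 0.234 after CX3CL1, and 0.316, 0.225 and 0.273 after IFN-γ. It was lower in every CX3CL1 and every IFN-γ library than in any untreated one, and the CX3CL1 and IFN-γ groups overlapped. The ratio of IFIT3 to IFIT1 was 0.365, 0.154 and 0.254 in untreated cells and 0.430, 0.273 and 0.369 after CX3CL1, which overlapped, but 0.844, 0.782 and 0.912 after IFN-γ. IFN-γ libraries thus held more IFIT3 per IFIT1 than any CX3CL1 library (exact two-sided permutation p = 0.1, the smallest that 3 against 3 can give). The ratio of IFIT1BL2 to IFIT1 averaged 0.0241 in untreated cells, 0.0252 after CX3CL1 and 0.0368 after IFN-γ, with the IFN-γ group above both others.

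Within the IFITM family the ratio of IFITM3 to IFITM2 was 3.35, 1.81 and 2.01 in untreated cells, 4.10, 3.40 and 4.28 after CX3CL1, 6.14, 6.23 and 7.30 after IFN-γ, and 5.24, 7.10 and 7.69 after CX3CL1+IFN-γ. The untreated, CX3CL1 and IFN-γ groups did not overlap. IFITM3 made up 68.7% of the summed IFITM level in untreated cells, 78.7% after CX3CL1 and 86.1% after IFN-γ. The summed IFITM level was 1687 ± 318, 2383 ± 353, 4249 ± 187 and 4299 ± 199 TPM (SD, n = 3) in the order no treatment, CX3CL1, IFN-γ and CX3CL1+IFN-γ. The summed IFIT level was 44.9 ± 10.3, 174 ± 36.2, 516 ± 226 and 675 ± 243 TPM in the same order. For the 6 ratios tested over 5 comparisons, no exact permutation p could be under 0.1 with groups of this size.

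Adding IFN-γ to CX3CL1 raised the 4 IFIT genes and IFITM3. In CX3CL1+IFN-γ against CX3CL1, 5 of 7 members were called higher, where 3.76% of all genes were. The log2 fold change was 1.58 for IFIT1 (SE 0.31, limma adjusted p = 0.00985), 1.36 for IFIT2 (SE 0.28, limma adjusted p = 0.0130), 2.78 for IFIT3 (SE 0.41, limma adjusted p = 0.00198) and 1.71 for IFIT1BL2 (SE 0.21, limma adjusted p = 0.000508). For IFITM3 it was 1.00 (SE 0.19, limma adjusted p = 0.00772). Without CX3CL1+IFN-γ replicate 3, the highest library for all 4 IFIT genes, IFIT1 (1.32, limma adjusted p = 0.0534) and IFIT2 (1.06, limma adjusted p = 0.0555) were not called. IFITM1 was at -0.42 (SE 0.18, 95% interval -0.81 to -0.04, limma adjusted p = 0.226) and was called lower with the replicate block (limma adjusted p = 0.0403), as were 2.81% of all genes in that fit.

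Adding CX3CL1 to IFN-γ gave a small difference in the same direction for all 4 IFIT genes, and no member was called. In CX3CL1+IFN-γ against IFN-γ the log2 fold change was 0.43 for IFIT1 (95% interval -0.24 to 1.09), 0.43 for IFIT2 (-0.17 to 1.02), 0.39 for IFIT3 (-0.51 to 1.28) and 0.32 for IFIT1BL2 (-0.14 to 0.78), each with a limma adjusted p of 0.9755. IFITM3 and IFITM2 were at 0.02 and 0.01, and IFITM1 at -0.27. Across all genes 0.345% were called higher. At an unadjusted p under 0.05 there were 517 of the 11878 genes, and no member was among them, since the lowest limma p among the members was 0.148.

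Libraries with the same replicate number deviated together in these groups, so the groups were also compared number by number. CX3CL1+IFN-γ was above IFN-γ by a TPM ratio of 1.34, 1.46 and 1.25 for IFIT1 in replicates 1, 2 and 3, 1.31, 1.42 and 1.32 for IFIT2, 1.41, 1.37 and 1.16 for IFIT3, and 1.31, 1.35 and 1.198 for IFIT1BL2. Each IFIT member was above in all 3 numbered comparisons, as were 25.0% of all genes. These members varied together over the 12 libraries (Pearson r from 0.942 to 0.987), so they do not count as separate replicates. IFITM3 was at 0.962, 1.04 and 1.04, IFITM2 at 1.13, 0.909 and 0.990 and IFITM1 at 0.677, 0.819 and 1.01. With a replicate block in the 12 libraries no member was called. In a fit of only these 6 libraries with the block, chosen after seeing the data, IFIT1 (SE 0.06, limma adjusted p = 0.0221), IFIT2 (SE 0.05, limma adjusted p = 0.0136) and IFIT3 (SE 0.07, limma adjusted p = 0.0408) were called higher, as were 2.58% of all genes, and IFIT1BL2 was not (SE 0.07, limma adjusted p = 0.0552).

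**Figure D4:**
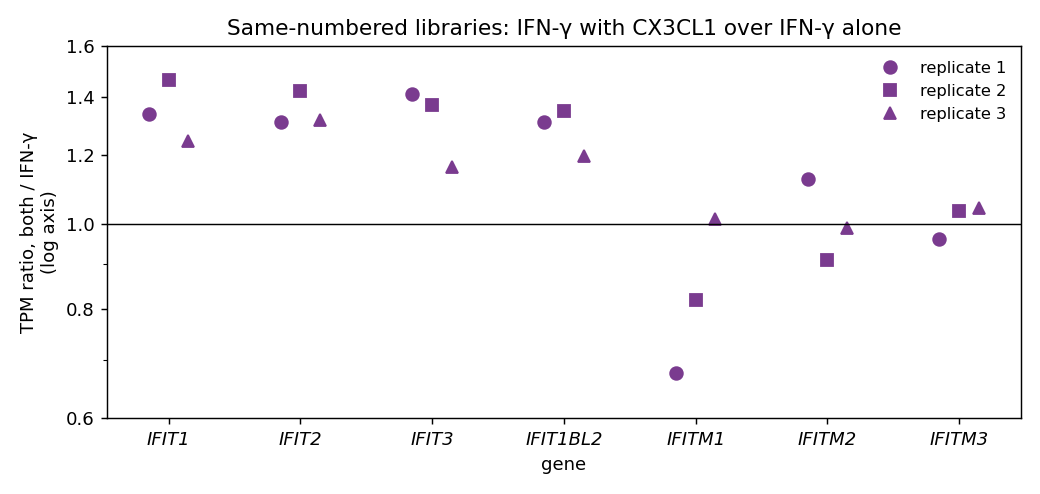
TPM ratio of CX3CL1+IFN-γ to IFN-γ (y axis, log scale) for each member (x axis) in libraries with the same replicate number. The 4 IFIT genes lie between 1.16 and 1.46 in every replicate, and the IFITM genes lie on both sides of the line at 1.

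The interaction, which is the effect of CX3CL1 with IFN-γ minus its effect without, was read for each member. It subtracts the effect of CX3CL1 alone, so members picked for a high effect of CX3CL1 alone tend to a negative value, and no weight is put on the sign. It was -1.85 for IFIT1 (SE 0.43, 95% interval -2.78 to -0.91, limma adjusted p = 0.298), -2.22 for IFIT3 (SE 0.58, 95% interval -3.49 to -0.96, limma adjusted p = 0.411) and -0.93 for IFIT1BL2 (SE 0.30, 95% interval -1.58 to -0.28, limma adjusted p = 0.921). IFITM3 was at -0.70 and IFIT2 at -0.32, and IFITM1 and IFITM2 at -0.04 and 0.05. No member was called, and limma called 0% of all genes, with 273 genes at an unadjusted p under 0.05. IFIT3 had the 5th lowest interaction of all genes tested and IFIT1 the 19th lowest. For the effect of CX3CL1 alone, which is subtracted here, they ranked 16th and 29th highest, so no weight is put on these ranks either. By group mean, 5 of 7 members followed the order no treatment, CX3CL1, IFN-γ, CX3CL1+IFN-γ from lowest to highest, as did 11.9% of all genes, and for none of the 5 did the last 2 groups stand apart.

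The other IFIT and IFITM genes of the mouse were also read. IFIT1BL1 had group means of 0.375, 1.39, 14.3 and 20.7 TPM in the same order. It was called after IFN-γ (3.29, limma adjusted p = 0.000904) and was at 0.79 after CX3CL1 (limma adjusted p = 0.908). IFITM6 was between 0.553 and 9.45 TPM and IFITM5 between 0.181 and 1.14 TPM, and neither was called after CX3CL1 or IFN-γ without a block. With the replicate block IFITM6 was called higher after IFN-γ (1.19, limma adjusted p = 0.0227), as were 11.4% of all genes, and its IFN-γ libraries were 3.07, 2.73 and 4.55 times the untreated ones of the same number, while the groups overlapped. IFITM10 was under the filter and IFITM7 was listed at 0 in every library.

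The components that carry interferon signals to these genes were called in part. Of 15 genes for receptors, signaling proteins and feedback regulators, 4 were called higher after CX3CL1 and 7 after IFN-γ, and none lower, beside 1.78% and 5.91% of all genes called higher. STAT2 rose by 1.42 after CX3CL1 (limma adjusted p = 0.00288) and by 2.64 after IFN-γ (limma adjusted p = 7.64e-06). IRF9, its partner in ISGF3 and named here after its values were seen, rose by 0.80 (limma adjusted p = 0.00176) and 1.12 (limma adjusted p = 2.89e-05). USP18, which damps type I interferon signaling, rose by 2.42 (limma adjusted p = 0.000581) and 3.20 (limma adjusted p = 1.39e-05). IRF7, an inducer of type I interferon genes, rose by 3.84 after IFN-γ (limma adjusted p = 5.2e-05) and was at 1.52 after CX3CL1 (limma adjusted p = 0.105). The median of the 15 genes was 0.37 after CX3CL1 and 0.68 after IFN-γ.

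Interferon mRNA itself was scarce. Of 11 interferon genes, IFNB1, which encodes interferon beta, alone passed the filter. Its levels were 0.106, 0.0720 and 0 TPM in untreated cells, 0.199, 0 and 0.506 TPM after CX3CL1, and 0.568, 0.941 and 0.930 TPM after IFN-γ. The untreated and CX3CL1 libraries overlapped. IFNB1 rose by 0.77 after IFN-γ (SE 0.17, limma adjusted p = 0.0116) and was at 0.20 after CX3CL1 (SE 0.17, limma adjusted p = 1.00).

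Other antiviral interferon-stimulated genes were read from a list of 20, and 18 of these were called higher after CX3CL1 and all 20 after IFN-γ, beside 1.78% and 5.91% of all genes. The median was 1.71 and 2.53. ZBP1, a sensor of Z-form nucleic acid, rose by 2.50 (limma adjusted p = 0.00174) and 5.52 (limma adjusted p = 2.23e-06), and RSAD2, the antiviral enzyme viperin, by 2.41 (limma adjusted p = 0.0118) and 4.28 (limma adjusted p = 4.88e-05). MX2, a dynamin-like GTPase, rose by 2.37 (limma adjusted p = 0.00185) and 4.06 (limma adjusted p = 7.64e-06). MX1, its relative, rose by 4.31 after IFN-γ (limma adjusted p = 5.76e-05) and was at 1.52 after CX3CL1 (limma adjusted p = 0.187). None of the 20 was called in CX3CL1+IFN-γ against IFN-γ.

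Of 13 tested genes driven by IFN-γ through GAS elements, 4 were called higher after CX3CL1 and 12 after IFN-γ, beside 1.78% and 5.91% of all genes. GBP2 and GBP3, guanylate-binding GTPases, rose by 2.82 (limma adjusted p = 0.00103) and 2.83 (limma adjusted p = 0.00019) after CX3CL1, and by 5.44 (limma adjusted p = 2.89e-06) and 5.34 (limma adjusted p = 1.15e-06) after IFN-γ. GBP5 and IIGP1 rose by 4.995 (limma adjusted p = 6.36e-05) and 4.93 (limma adjusted p = 9.1e-05) after IFN-γ and were at 1.96 and 1.78 after CX3CL1 (limma adjusted p = 0.124 and 0.211). Genes known to act with IFIT and IFITM proteins were also read, beside the same 1.78% and 5.91% of all genes called higher. These lists of 5 and 7 genes are short, and no weight is put on their counts. Of 5 IFIT partner genes none was called after CX3CL1 and EIF3C, a translation initiation subunit, was called after IFN-γ at 0.35 (limma adjusted p = 0.0472). None of 7 genes that modify or bind IFITM proteins was called in either comparison. With the replicate block, NEDD4, a ubiquitin ligase, and VCP, an ATPase, were called lower after IFN-γ, at -0.37 (limma adjusted p = 0.0305) and -0.23 (limma adjusted p = 0.0453), where 4.85% of all genes were lower.

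The genes whose pattern was most like that of each member were found by Pearson's r of log2(TPM + 1) over the 12 libraries, which share 4 treatments, so r mostly follows the group means. For IFIT1 these were CMPK2 (0.999), TRIM25 (0.996) and PARP12 (0.995), and for IFIT3 they were IFIT3B (0.997), STAT2 (0.997) and UBE2L6 (0.995). For IFIT2 they were SP140 (0.987), TRIM30D (0.986) and CD274 (0.983), the last of which encodes PD-L1. For IFIT1BL2 they were IFIT3B, GM4951 and IFI205, all at 0.993. IFITM3 was most like IRF7 (0.996), OAS1G (0.993) and PSMB8 (0.991). IFITM2 was most like DCAKD (0.964), FOXP4 (0.962) and CXXC1 (0.962), and IFITM1 most like PPM1F (0.930), OSBPL3 (0.926) and VAPB (0.926).

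The upstream sequences and the calls were also listed side by side, member by member. IFIT1, IFIT3 and IFIT1BL2 held 2 cores and were called after both agents. IFITM2 held 1 core and was not called after either. IFIT2 and IFITM3 held none in the window and were called after IFN-γ but not after CX3CL1. IFITM1 held none and was not called after either. These are descriptions of 7 genes, of which IFIT1 and IFIT1BL2 share their cores. Binding was not measured, and the part of these elements in the calls was not tested.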

How the data were processed

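CT26 cells were profiled by RNA sequencing in 4 groups of 3 biological replicates. Groups were taken from the labels, and doses and time from the study's methods and legends. The authors prepared strand-specific mRNA libraries and aligned reads to mm10. The submitters' processing notes name STAR 2.7.3a and DESeq2 1.22.1. The deposited values are TPM per gene symbol, made by the authors. The annotation, the strand setting and the treatment of reads shared by similar genes are not given in the sources used here. All 12 value columns were mapped to libraries by name. TPM hold no read depth, so precision is the spread between replicates, and p-values measure only that spread.

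Tests used R 4.3.3 and limma 3.58.1 (lmFit and trended eBayes) on log2(TPM + 1) for the 11878 genes that averaged 0.2 TPM or more, with all 12 libraries in 1 fit, no block and Benjamini-Hochberg adjustment over all genes. The fit without a block was tested on simulated data with independent noise in each library. Shared replicate deviations were not simulated. Python 3.11.15, pandas 2.3.3, SciPy 1.17.1 and matplotlib 3.10.9 prepared values, permutation tests and plots. Shared transcript sequence was counted in GENCODE vM21 and upstream sequence taken from RefSeq for GRCm38.p6.

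The members, lists and tests were chosen with earlier results of these data known. All 7 members were described in each comparison. Listed genes were given by counts, with up to 4 named per list by the largest called change after IFN-γ, every related IFIT or IFITM gene, and for each member the 3 genes most like it. Some listed genes are not reported here. Alternatives changed the pseudocount to 0.1, removed the filter or raised it to 1 TPM, scaled libraries by median ratio, dropped the intensity trend, fitted only the libraries compared, added a replicate block or left out each library.

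Replicate numbers come from the labels, which do not say what they share. Deviations from the group means correlated above 0.1 for every number between IFN-γ and CX3CL1+IFN-γ (0.630, 0.635, 0.649), no treatment and IFN-γ (0.429, 0.460, 0.220), CX3CL1 and IFN-γ (0.584, 0.361, 0.226), and CX3CL1 and CX3CL1+IFN-γ (0.351, 0.353, 0.428), so these were taken as paired. The lowest was 0.005 between no treatment and CX3CL1 and 0.032 between no treatment and CX3CL1+IFN-γ, which were not. The replicate block was fitted over all 12 libraries unless stated, so each of those blocked results also spans the groups not taken as paired.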

Additional observations from a re-analysis of the deposited data

How the results depend on the processing

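Every member kept its direction and its call in all 6 comparisons with a pseudocount of 0.1, no filter, median-ratio scaling and no intensity trend, and in the 5 comparisons that could be fitted with only the libraries compared. With a mean of at least 1 TPM the IFIT1 difference of IFN-γ against CX3CL1 became called, and no other call changed. Groups of 3, the lack of read depth and TPM as shares of a total limit all values. The cause of the changes below was not tested.

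With the replicate block the number of genes called was 455 against 232 for CX3CL1, 1929 against 932 for IFN-γ, 95 against 43 for CX3CL1+IFN-γ against IFN-γ, 1369 against 558 for CX3CL1+IFN-γ against CX3CL1, 1601 against 544 for IFN-γ against CX3CL1, and 52 against 0 for the interaction. The block raised the members called from 3 to 5 in IFN-γ against CX3CL1 and from 0 to 1 in the interaction, which was IFIT1 (-1.85, limma adjusted p = 0.0215, with 0.413% of genes lower). It also called IFITM3 higher after CX3CL1 (limma adjusted p = 0.0191, with 2.92% of genes higher), and after CX3CL1 raised the called genes driven through GAS elements from 4 to 9 of 13 and the called receptor, signaling and feedback genes from 4 to 6 of 15. These groups are not all paired by the check, so the block there only shares a number. Beside the changes given in the report, the block changed no other call of a member. With the block in only the 6 libraries of CX3CL1+IFN-γ and IFN-γ, chosen after seeing the data, 407 genes and 3 members were called.

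With only the libraries compared, 20 genes were called in CX3CL1+IFN-γ against IFN-γ, 344 in CX3CL1+IFN-γ against CX3CL1 and 252 in IFN-γ against CX3CL1. With no filter 28 were called in CX3CL1+IFN-γ against IFN-γ.

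Leaving out 1 library at a time gave 152 to 268 genes for CX3CL1 (lowest without untreated replicate 3), 530 to 764 for IFN-γ (lowest without untreated replicate 3, and 551 without IFN-γ replicate 3), 16 to 54 for CX3CL1+IFN-γ against IFN-γ (26 or fewer without any single IFN-γ library or without CX3CL1+IFN-γ replicate 1 or 3), 270 to 668 for CX3CL1+IFN-γ against CX3CL1 (lowest without CX3CL1+IFN-γ replicate 3), 185 to 457 for IFN-γ against CX3CL1 (lowest without IFN-γ replicate 3, and 344 or fewer without CX3CL1 replicate 2 or any IFN-γ library), and 0 to 11 for the interaction (highest without untreated replicate 1). Members called ran from 3 to 5 in CX3CL1+IFN-γ against CX3CL1. Directions near 0 turned: the IFITM2 log2 fold change ran from -0.0968 to 0.0115 after CX3CL1, from -0.136 to 0.0863 in CX3CL1+IFN-γ against IFN-γ and from -0.0918 to 0.131 in the interaction, that of IFITM3 from -0.02996 to 0.0458 in CX3CL1+IFN-γ against IFN-γ, and that of IFITM1 from -0.20005 to 0.0929 in the interaction.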
